A study of Mus musculus with 3 samples.

Results

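The immediate-early genes of the EGR, NR4A and IER groups and Btg2 were examined in nuclear RNA of mouse bone-marrow-derived macrophages. The 10 members were taken by symbol from the gene tables of GENCODE M21, and all 10 were found among 55536 annotated genes. They were Egr1, Egr2, Egr3, Nr4a1, Nr4a2, Nr4a3, Ier2, Ier3, Ier5 and Btg2. The series holds 3 libraries of 1 group, described by the labels as total RNA, depleted of ribosomal RNA, from the nucleoplasmic part of C57BL/6J macrophages. The cells had received lipid A, the TLR4-binding part of lipopolysaccharide, at 100 ng/ml for 12 h, then 12 h without it, then 100 ng/ml again for 15 min. No untreated or once-treated cells are analysed here, so each value is a level in twice-treated nuclei and no gene is called induced or repressed. All 3 libraries carry a single donor identifier, and the labels do not say whether separate mice were used. The spread between the libraries may therefore be technical.

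Immediate-early genes are transcribed within minutes of a stimulus, without new protein synthesis. In macrophages TLR4 signals through the kinase TPL2 (Map3k8) to MEK and ERK, which act on serum response factor (Srf) with its ETS partners such as Elk1, and through p38 and MSK kinases to CREB. EGR proteins are zinc-finger factors held in check by the corepressors Nab1 and Nab2. NR4A proteins are orphan nuclear receptors that bind DNA alone, and Nr4a1 and Nr4a2 also pair with retinoid X receptors. Ier2, Ier3 and Ier5 encode small proteins unrelated in fold to either family, and Btg2 encodes an adaptor to the CCR4-NOT deadenylase.

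The libraries held 19312032 to 23826101 expected counts over annotated genes. Replicate 2 was made with 500 ng of RNA, and replicates 1 and 3 with 1 µg each. All 10 listed macrophage markers, among them Adgre1, Csf1r and Lyz2, reached 1 TPM, a share of all transcripts corrected for their length, in each library. No marker listed for neutrophils, T and NK cells, B cells, dendritic cells, fibroblasts, mast cells and basophils, or erythroid cells did so. The neutrophil list had the highest sum of these, at 3.42, 1.72 and 1.41 TPM in replicates 1, 2 and 3, with Ly6g and Elane at 0. S100a8 had 1.34, 0.43 and 0.41 TPM, on 13, 3 and 4 counts. S100a9 had 1.51, 0.53 and 0.38 TPM, on 16, 4 and 4 counts. Both passed 1 TPM in replicate 1 alone, the library in which Egr1 stood high. Ltf, at 0.53, 0.69 and 0.54 TPM, and Mpo, at 0.04, 0.07 and 0.08 TPM, were not highest there. In bulk RNA, fewer cells that use a gene and less of its RNA per cell cannot be told apart.

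A threshold of 1 TPM is used here to call members abundant or scarce. In each of the 3 libraries, 5 of 10 members had 1 TPM or more, namely Egr1, Ier2, Ier3, Ier5 and Btg2, against 42.8% of 22015 nuclear-encoded protein-coding genes. Egr2, Egr3, Nr4a1, Nr4a2 and Nr4a3 stayed under 1 TPM in every library. By mean TPM these 5 stood at the percentiles 44.4 (Nr4a3) to 51.9 (Nr4a1) of protein-coding genes. Scarce thus means a low TPM, near that of the median protein-coding gene. TPM is a level per transcript length, so these levels can be set beside each other.

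**Figure D1:**
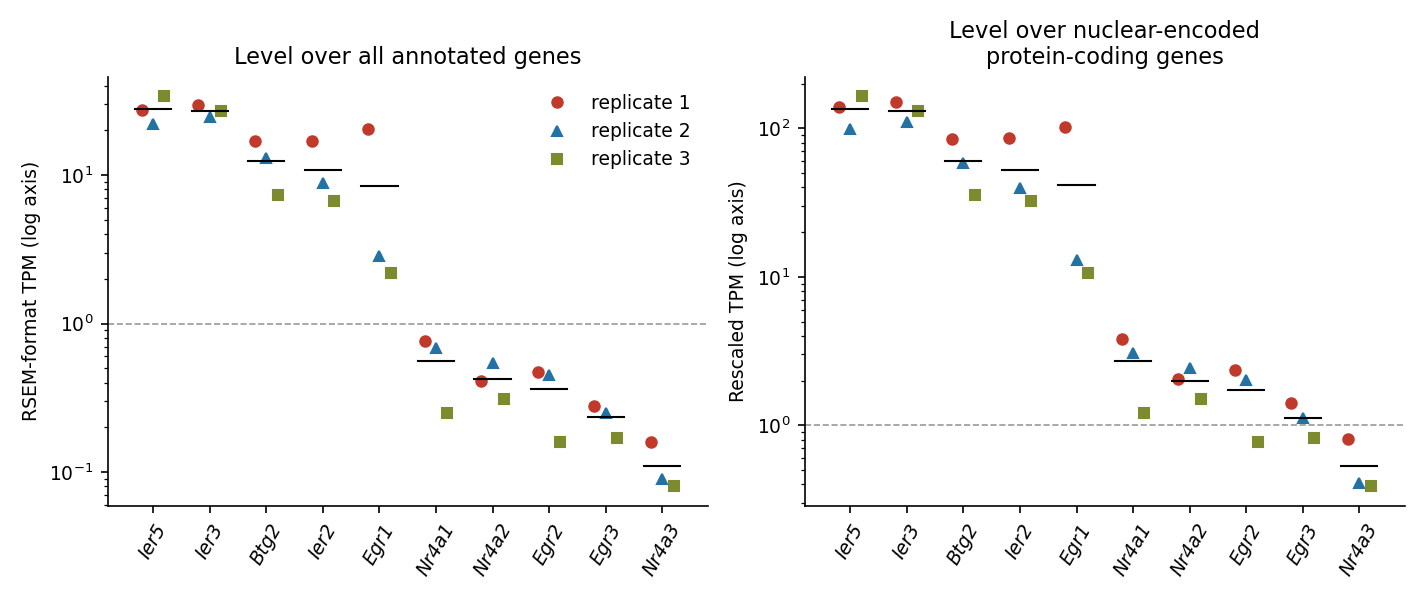
Level of each member in each library (points) with the mean of the 3 libraries (bar), as RSEM-format TPM on the left and as TPM rescaled to the same sum over nuclear-encoded protein-coding genes on the right, both on log axes with a dashed line at 1. Ier5 and Ier3 stand highest at means of 27.9 and 27.2 TPM, and the 3 Egr1 points are spread over 2.19 to 20.3 TPM.

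Ier5, whose product acts on heat shock factor and on protein phosphatase 2A, had 27.6, 22.1 and 33.9 TPM in replicates 1, 2 and 3, on 3084, 1752 and 3343 expected counts. Its mean was 27.9 ± 5.91 TPM (SD, n = 3), and replicate 3 was the highest library. Ier3, an NF-kappaB target linked to cell survival, had 29.9, 24.7 and 27.1 TPM in replicates 1, 2 and 3. Its mean of 27.2 ± 2.61 TPM (SD, n = 3) came with the smallest relative spread of the 10 members, a coefficient of variation of 9.60%. Ier5 and Ier3 stood at the percentiles 93.2 and 93.0 of protein-coding genes by mean TPM, and did not differ from each other beyond their spread.

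Btg2 had 17.0, 13.1 and 7.38 TPM in replicates 1, 2 and 3, a mean of 12.5 ± 4.81 TPM (SD, n = 3). Ier2, a nuclear protein with a role in transcription, had 17.1, 8.80 and 6.73 TPM, a mean of 10.9 ± 5.47 TPM (SD, n = 3). In both genes replicate 1 was the highest library and replicate 3 the lowest. Ier2 and Ier5 are annotated without introns, and the highest isoforms of Ier3 and Btg2 have 1 intron each.

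Egr1, the EGR member best known as a reporter of ERK activity, had 20.3 TPM in replicate 1, 2.86 TPM in replicate 2 and 2.19 TPM in replicate 3. The expected counts behind these levels were 2291, 221 and 221. Replicate 1 thus stood apart from the others, which lay within 1.31-fold of each other. The mean of 8.46 ± 10.3 TPM (SD, n = 3) has an SD larger than itself and describes no single library. Without replicate 1, Egr1 was at 1.81 ± 0.19 in log2(TPM + 1) (SD, n = 2), against 2.68 ± 1.51 over all 3 libraries. Most Egr1 signal went to the isoform Egr1-202, with 81.5%, 88.7% and 78.5% of the gene's isoform abundance in the authors' deposited tables, and the rest to Egr1-201. Both are annotated as protein-coding, and replicate 1 lay between the others in this share.

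The other EGR genes were scarce. Egr2, a factor needed for myelination, had 0.47, 0.45 and 0.16 TPM in replicates 1, 2 and 3, on 46, 32 and 14 counts. Egr3, a close paralogue of Egr2, had 0.28, 0.25 and 0.17 TPM on 33, 24 and 20 counts. In neither gene did replicate 1 stand apart from replicate 2. Egr4, the remaining family member, had a single count in replicate 2 and none in the other libraries. By a 1-sided 95% Poisson bound, a gene with 0 counts could still have had a mean of up to 3 counts in a library at this depth. That limit covers counting error only.

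The 3 NR4A genes were likewise under 1 TPM in each library. Nr4a1 (Nur77), needed for patrolling monocytes, had 0.76, 0.68 and 0.25 TPM on 34, 28 and 16 counts in replicates 1, 2 and 3. Nr4a2 (Nurr1), known for its part in dopamine neurons, had 0.41, 0.54 and 0.31 TPM on 38, 43 and 30 counts. Nr4a3 (Nor1) had the lowest level of all members at 0.16, 0.09 and 0.08 TPM, on 23, 13 and 9 counts. Replicate 3 was the lowest library for each of the 3 genes, and replicate 2 was the highest for Nr4a2. The 95% Poisson intervals of the Nr4a1 counts ran over 23.5 to 47.5, 18.6 to 40.5 and 9.15 to 26.0, so those of neighbouring values overlap. Such intervals cover counting error only.

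The members' promoters differed in cyclic AMP response elements, the sites that CREB and ATF proteins bind. RefSeq promoters (GRCm38.p6) matched 7 of 10 members. Egr1, Egr3 and Ier2 had no entry, so their promoters were not searched. For the 7, the 250 bases before each start (for Egr2 the most upstream of 5 starts) were searched on both strands. The core TGACG was in 4 of 7, the 3 NR4A genes and Btg2, against 17.8% of 32851 promoters. Each NR4A promoter held 4 of these sites. Btg2 held the full element TGACGTCA, found in 1.55% of promoters, in which each strand contains the core. Egr2, Ier3 and Ier5 held none. The CArG box of serum response factor, the EGR site GCGTGGGCG and the NR4A site AAAGGTCA were in none of the 7 (in 1.47%, 0.536% and 1.34% of all promoters), and TATAAA was in 1, Nr4a2 (12.4% of all). A match is a match of letters, not evidence of binding.

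The 4 promoters with such sites are shown because they belong to genes of unlike level, the scarce Nr4a1, Nr4a2 and Nr4a3 and the abundant Btg2. Each is read 5′ to 3′ on the gene's strand up to the RefSeq start or the first annotated exon, and capitals mark TGACG or its complement CGTCA. For Nr4a3 the stretch ends before an upstream exon and keeps 3 of the 4 sites. The stretch of Nr4a1 lies within an intron of a longer GENCODE transcript of the gene. The stretches are chr15:101266596-101266845 on the plus strand for Nr4a1, chr2:57124004-57124253 on the minus strand for Nr4a2, chr4:48045055-48045152 on the plus strand for Nr4a3 and chr1:134079156-134079405 on the minus strand for Btg2.
Nr4a1: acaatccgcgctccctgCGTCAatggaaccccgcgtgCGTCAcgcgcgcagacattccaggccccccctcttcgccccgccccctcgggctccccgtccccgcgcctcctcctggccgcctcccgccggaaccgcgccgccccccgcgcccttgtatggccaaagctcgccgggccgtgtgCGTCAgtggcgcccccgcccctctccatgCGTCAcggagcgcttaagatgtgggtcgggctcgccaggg
Nr4a2: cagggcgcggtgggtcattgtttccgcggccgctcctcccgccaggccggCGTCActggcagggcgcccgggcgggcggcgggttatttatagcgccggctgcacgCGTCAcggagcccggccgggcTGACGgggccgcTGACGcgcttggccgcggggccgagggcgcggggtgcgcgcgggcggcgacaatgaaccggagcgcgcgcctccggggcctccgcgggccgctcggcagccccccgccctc
Nr4a3: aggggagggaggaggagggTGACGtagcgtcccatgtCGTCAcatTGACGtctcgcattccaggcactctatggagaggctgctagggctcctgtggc
Btg2: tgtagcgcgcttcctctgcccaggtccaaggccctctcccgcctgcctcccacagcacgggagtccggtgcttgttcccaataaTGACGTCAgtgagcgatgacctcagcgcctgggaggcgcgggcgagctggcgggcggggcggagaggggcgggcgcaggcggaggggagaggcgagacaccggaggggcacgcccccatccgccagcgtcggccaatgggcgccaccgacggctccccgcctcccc
The sites of Nr4a1 open 40, 69, 213 and 233 bases before the start and those of Nr4a2 111, 123, 144 and 200 bases before it. The element of Btg2 opens 166 bases before the start. Among the scarce members with an entry, each NR4A gene held 4 of these sites and Egr2 none. Among the abundant ones, Btg2 held the full element and Ier3 and Ier5 no site. Number of sites thus did not order these members by level.

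The level of the NR4A genes depended on the quantification. The kallisto-format table assigned Nr4a2 111, 170 and 103 estimated counts, and Nr4a3 82.2, 72.8 and 42.3, in replicates 1, 2 and 3. For Egr1 it gave 2609, 397 and 269. For Nr4a2 the posterior mean TPM that the authors deposited beside the point estimate was 2.50, 3.61 and 1.64, with a credibility interval that in replicate 1 ran over 0.37 to 6.58 TPM. Protein-coding genes made up 19.9% to 22.2% of RSEM-format TPM, and rescaling to these genes alone raised 7 of 10 members to at least 1 in every library. On the kallisto-format rescaled scale 9 members did so, with Nr4a1 at 7.02, 9.39 and 3.24. Whether 1 lies between the abundant and the scarce members thus depended on the scale. On the posterior mean TPM the split itself did not hold in replicate 2, where Nr4a2 at 3.61 stood above Egr1 at 2.75.

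The order by mean level was Ier5, Ier3, Btg2, Ier2, Egr1, Nr4a1, Nr4a2, Egr2, Egr3 and Nr4a3. Neighbours were called distinct where the difference kept its sign in all 3 libraries and its mean exceeded its SD. This held for Ier3 above Btg2, by 1.13 ± 0.53 in log2(TPM + 1) (SD, n = 3), for Egr1 above Nr4a1, by 2.05 ± 1.34, and for Egr3 above Nr4a3, by 0.15 ± 0.04. The last of these was lost in kallisto-format TPM, where Nr4a3 stood above Egr3 in replicate 1, at 0.167 against 0.115. The other neighbours did not differ beyond their spread. Egr1 stood above Ier2 in replicate 1 and under it in the other libraries.

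By family, the median of log2(TPM + 1) over the 4 genes Ier2, Ier3, Ier5 and Btg2 exceeded that over the EGR genes by 3.77 ± 0.16 (SD, n = 3). It exceeded the NR4A median by 3.73 ± 0.25. Both differences were positive in 3 of 3 libraries, and each had p = 0.25 in an exact sign-flip test (two-sided). No smaller p is possible with 3 libraries, and each had an adjusted p of 0.375 over 3 comparisons. The NR4A median minus the EGR median was 0.04 ± 0.09 (SD, n = 3), with an exact p of 0.5 and an adjusted p of 0.5, and was positive in 2 of 3 libraries. Taking means over members instead turned this last difference to -0.71 ± 0.48, since the mean of the EGR genes carries Egr1.

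The spread of each gene between the libraries was set against the trend over genes of like abundance with edgeR's quasi-likelihood fit, on 14350 genes of which 9 were members (Nr4a3 was too low). Egr1 ranked 3 of 14350, with a spread 91.9 times the trend, on 95.4, 11.1 and 10.6 CPM (counts scaled to TMM library size) in replicates 1, 2 and 3. In an F test computed from that fit, its unadjusted p was 8.21e-05 and its Benjamini-Hochberg adjusted p was 0.361, so it was not called. No member and no gene at all passed the adjusted threshold of 0.05 in this fit (0% of genes tested), while 690 genes had an unadjusted p under 0.05. DESeq2 marked Egr1 as a dispersion outlier, 1 of 83 such genes (0.578%) and the only one among the 9 members tested. Without the filter on low counts, the F test called 109 of 24311 genes (0.448%), Egr1 among them as the only member, at an adjusted p of 0.000859. Without replicate 1 the ratio for Egr1 fell to 0.020.

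**Figure D2:**
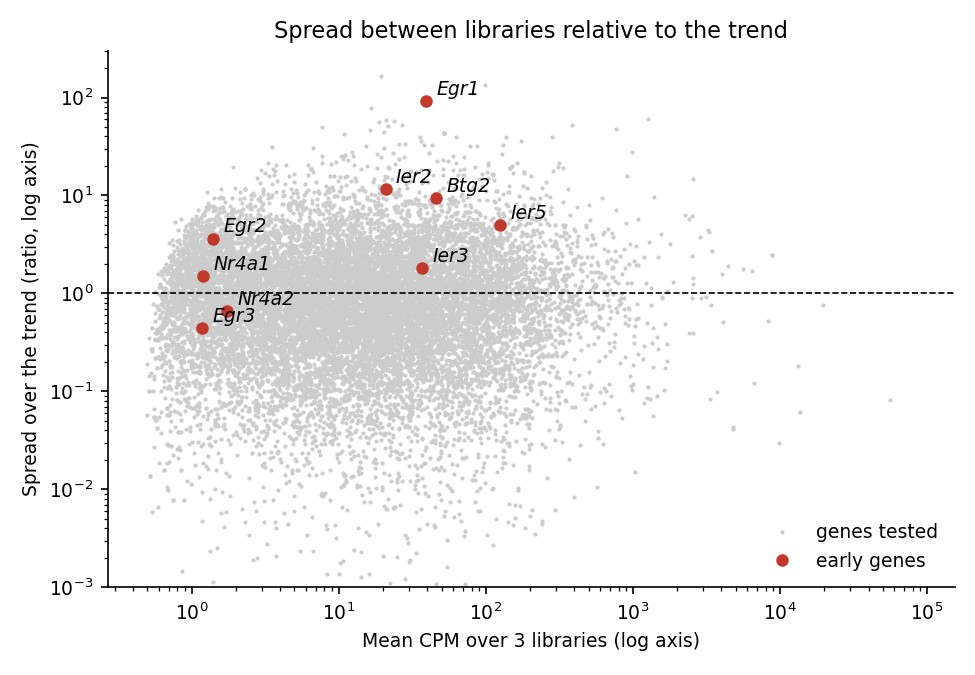
Spread of each gene between the 3 libraries as a ratio to the edgeR trend, against mean CPM, both on log axes, with 14350 genes in grey and 9 early genes in red. Egr1 lies at 91.9 near the upper edge, Ier2 and Btg2 at 11.6 and 9.43, and ratios too small for the axis are not drawn.

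Ier2 and Btg2 came next among the members, at ranks 196 and 290 with ratios of 11.6 and 9.43. The F test gave them an unadjusted p of 0.0119 and 0.0183 and an adjusted p of 0.870 and 0.902. Ier5 ranked 860 with a ratio of 4.97, and Ier3 ranked 3511 with a ratio of 1.81. Egr2 had a ratio of 3.64, and Nr4a1, Nr4a2 and Egr3 lay between that and 0.44, on 14 to 46 counts a library, where counting error is large. The 5 abundant members thus did not share a spread. Distances from the Egr1 profile were 1.27 for Ier2, 1.57 for Btg2, 1.98 for Ier3 and 2.21 for Ier5. For the scarce members they were 1.90 to 2.13. Those say little, since log2(TPM + 1) hardly moves for a gene under 1 TPM.

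Replicate 1 was the highest library for 4 of the 5 members averaging 1 TPM or more, all but Ier5. Over 9863 protein-coding genes of that level the share was 21.8%, and after rescaling over protein-coding genes it was 33% in RSEM-format and 37% in kallisto-format TPM, with 4 of 5 members in each. TPM + 1 in replicate 1 was at least 2-fold above both other libraries for 1 of these 5 members, Egr1, and for 38 of 9863 genes (0.385%). The ratio of replicate 1 to replicates 2 and 3 for Egr1 was 7.10 and 9.28 in TPM, 8.57 and 9.00 in CPM, and 6.35 and 9.25 in kallisto-format rescaled TPM. In Ier2 the CPM ratios were 2.26 and 2.45, and in Btg2 1.51 and 2.25. Reads of the phiX control made up 0.827%, 0.275% and 0.0545% of counts in replicates 1, 2 and 3, and mitochondrial mRNA 4.25%, 4.98% and 2.30%. Neutrophil markers summed highest in replicate 1 too, at the values given above, though Ltf and Mpo were not highest there. So did the macrophage list, at 4728.7, 4139.8 and 3416.9 TPM in replicates 1, 2 and 3. The T and NK cell, B cell, dendritic cell and fibroblast lists also summed highest there. The mast cell and basophil list and the erythroid list did not. The part of any of these in the Egr1 difference was not tested.

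**Figure D3:**
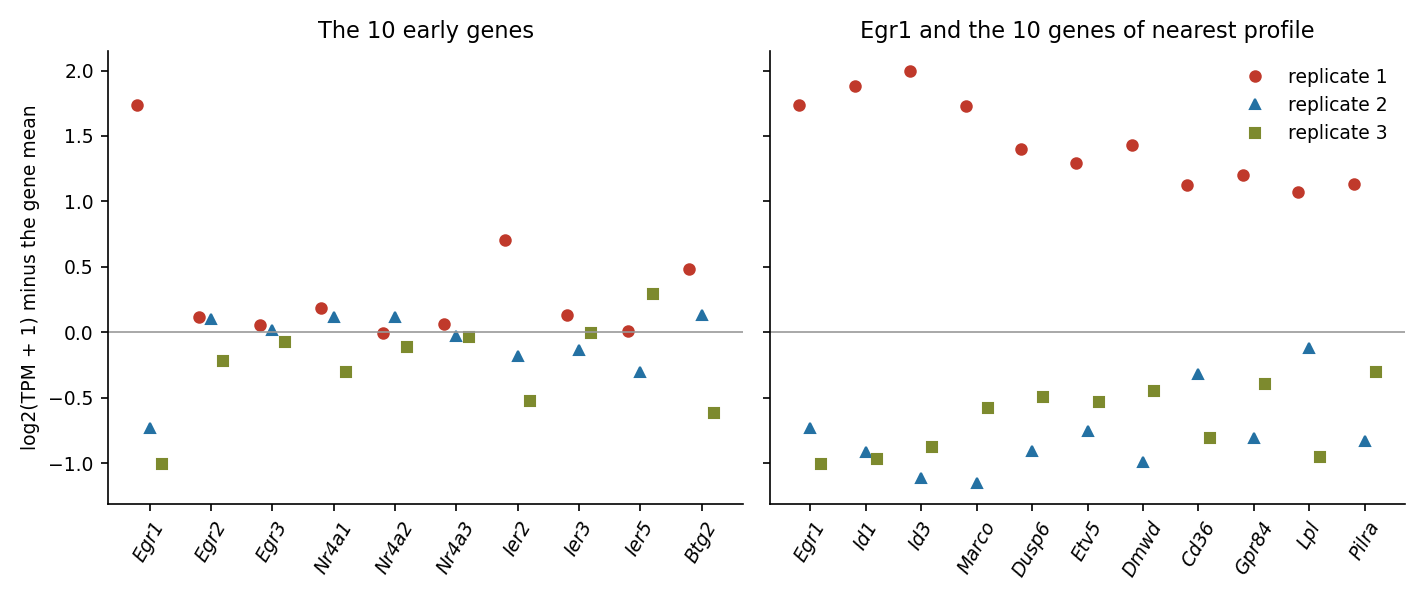
Deviation of log2(TPM + 1) from the gene's mean over the 3 libraries, for the 10 early genes on the left and for Egr1 with its 10 nearest profiles on the right, 1 point per library. Replicate 1 lies 1.74 above the mean for Egr1 and 0.70 above it for Ier2, and stands highest for each of the 10 nearest genes.

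The 10 protein-coding genes closest to the Egr1 profile were sought among 8755 with a mean TPM of at least 2, by Euclidean distance of log2(TPM + 1) centred on each gene's mean over the 3 libraries. In order they were Id1, Id3, Marco, Dusp6, Etv5, Dmwd, Cd36, Gpr84, Lpl and Pilra, at distances of 0.24 to 0.93. All stood highest in replicate 1, as the choice by profile requires. Id1 and Id3, inhibitors of basic helix-loop-helix factors, had 6.22 and 9.18 TPM in replicate 1, and Id1 had 1 count in replicate 2 and none in replicate 3. Marco, a scavenger receptor, had 346, 46.1 and 69.1 TPM in replicates 1, 2 and 3. Dusp6, a phosphatase of ERK, had 15.6, 2.33 and 3.45 TPM. Etv5, an ETS factor, had 10.6, 1.81 and 2.28 TPM. With 3 libraries, genes can share a profile by their high library alone, so likeness here is a description of these libraries. What these genes share with Egr1 was not tested.

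The genes known to control the members were present in all libraries. All 17 of the list of upstream kinases and factors reached 1 TPM in each library, against 42.8% of protein-coding genes. Map3k8 (TPL2) had 30.2, 37.3 and 37.4 TPM in replicates 1, 2 and 3, and Map2k1 (MEK1) had 22.1, 21.8 and 27.1 TPM. Map2k2 (MEK2) had 23.92, 20.96 and 25.87 TPM. None of the 17 was 2-fold above both other libraries in replicate 1, against 0.385% of protein-coding genes averaging 1 TPM or more. Replicate 1 was the highest library for 5 of 17 in TPM, against 21.8% of those genes. On the rescaled scales 33% or 37% of those genes were highest in replicate 1, and this list was not counted on them. The share of this list in TPM was smaller than that of the other early genes below. Both lists were chosen with results known, and the difference was not tested.

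Of 14 partners and relatives of the members, 10 reached 1 TPM in each library, against 42.8% of protein-coding genes. Cnot1, the scaffold of the CCR4-NOT complex to which Btg2 binds, had 32.6, 46.6 and 30.4 TPM in replicates 1, 2 and 3. Btg1, the closest relative of Btg2, had 11.3, 19.7 and 16.7 TPM and was lowest in replicate 1, where Btg2 was highest. The corepressor Nab1 had 11.6, 13.8 and 11.9 TPM, and Nab2, itself an EGR target, had 5.77, 4.84 and 5.04 TPM. Replicate 1 was the highest library for Nab2, as it was for Egr1, and any link between their levels was not tested. Rxrg, a retinoid X receptor, had 0 expected counts in all libraries, but 0.476, 1.29 and 0.280 in kallisto-format rescaled TPM. It was named after its values were seen.

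Among 30 other early genes of the same kind of response, 19 reached 1 TPM in each library, against 42.8% of protein-coding genes. Zfp36, which directs decay of cytokine mRNAs, had 116, 126 and 92.6 TPM in replicates 1, 2 and 3. Junb had 113, 73.7 and 82.3 TPM, and Klf6 had 67.0, 86.3 and 89.3 TPM. Fos, the partner of JUN proteins, had 42.9, 32.8 and 7.79 TPM, so it was low in replicate 3 alone, unlike Egr1. Of 21 averaging 1 TPM or more, 13 were highest in replicate 1 in TPM. The share of all genes of that level was 21.8% in TPM and 33% or 37% on the rescaled scales. This list was not counted on the rescaled scales. Of the same 21, 4 were 2-fold above both other libraries in replicate 1 (0.385% of all genes of that level). Those 4 were Dusp6, Spred2, Etv5 and Trib1, of which Dusp6 and Spred2 encode inhibitors of ERK signalling. Spred2 and Trib1 were named after their values were seen. The list was chosen with results of these libraries known, so its counts are a description.

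**Figure D4:**
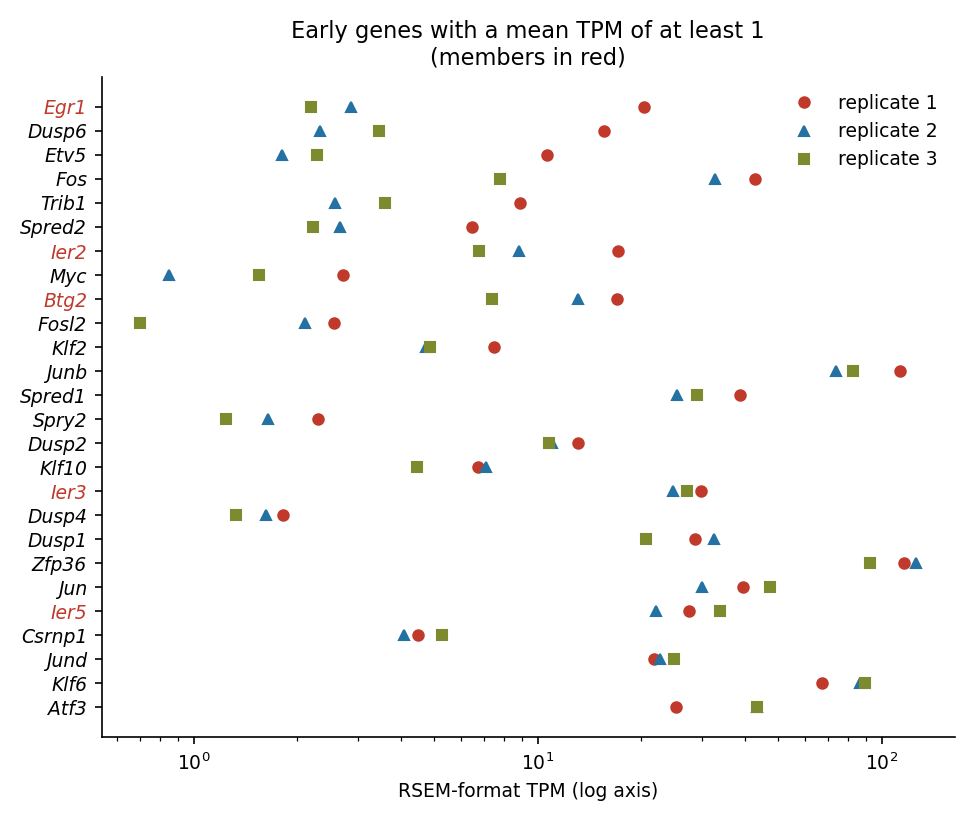
TPM in each library, on a log axis, of 5 members (red names) and 21 other early genes averaging 1 TPM or more, ordered from top to bottom by how far replicate 1 lies above the others in log2(TPM + 1). Egr1, Dusp6 and Etv5 have replicate 1 far to the right of the other libraries, at 20.3, 15.6 and 10.6 TPM, while Fos is low in replicate 3, at 7.79 TPM.

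Isoforms not annotated as protein-coding received signal in Egr3, Nr4a1, Nr4a2 and Nr4a3. For Egr3 the RSEM-format tables gave 100%, 100% and 0% of TPM in replicates 1, 2 and 3 to such isoforms. In replicates 1 and 2 the reads went almost wholly to the intron-retaining Egr3-202, and in replicate 3 to the protein-coding Egr3-204. The kallisto-format share was 74.0%, 61.3% and 48.2%, so the switch rests on how 20 to 33 counts were assigned. In Nr4a2 the share was 29.3%, 42.6% and 54.8% of TPM, mostly in replicates 2 and 3 in Nr4a2-206, annotated for nonsense-mediated decay. It was 10.3%, 40.1% and 51.6% of the Nr4a2 counts, and 35.9%, 19.0% and 71.0% in kallisto format, so the order of the libraries changed with the quantification. In Nr4a1 it was 26.7%, 42.6% and 16% of TPM but 14.7%, 17.9% and 6.25% of counts, on 5, 5 and 1 counts of the short intron-retaining Nr4a1-204. The kallisto-format share of Nr4a1 was 10.7%, 11.9% and 9.30%. In Nr4a3 such isoforms took 35.3%, 0% and 37.5% of TPM, on 2.25, 0 and 1.18 expected counts of Nr4a3-202. The share of Nr4a3 was 9.78%, 0% and 13.1% of counts and 19.5%, 26.6% and 0% in kallisto format, so the library without such signal differed between the quantifications. Ier2, Ier3, Ier5 and Btg2 have 1 annotated transcript each.

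In mm10, Egr1 spans chr18:34859823-34864984, Egr2 chr10:67535475-67542188 and Egr3 chr14:70077203-70082614. Nr4a1 spans chr15:101254269-101274795, Nr4a2 chr2:57106830-57124003 and Nr4a3 chr4:48045153-48086447. Ier2 spans chr8:84661331-84662852, Ier3 chr17:35821684-35822923, Ier5 chr1:155096361-155099636 and Btg2 chr1:134075170-134079120. No other annotated gene overlaps any of the 10, so reads of an annotated antisense partner do not enter their counts.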

How the data were processed

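Nuclear total RNA of 3 libraries was analysed. The members, lists and tests were chosen with earlier results of these data known. The accompanying notes in the deposited files name mm10 and GENCODE M21. The quantifier and strand setting were not given in the sources used here. Gene and transcript tables have the columns that RSEM writes. Their expected counts are the authors' estimated counts per gene, not normalised. Their TPM, posterior mean TPM and FPKM values were scaled by the authors within each library, and the deposited isoform percent is each transcript's share of its gene. A further deposited table has the columns that kallisto writes, with estimated counts and TPM per transcript, which were summed per gene. The TPM scale depends on short abundant RNAs, so TPM was also rescaled over 22015 nuclear-encoded protein-coding genes. Rows with numeric identifiers (10, 22 and 24 counts), ERCC (0 counts) and phiX (0.827%, 0.275% and 0.0545% of counts) entered neither library sizes nor tests.

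Levels are log2(TPM + 1). Expected counts were rounded and filtered with filterByExpr for edgeR 4.0.16 (TMM, quasi-likelihood fit with an intercept, dispersion held at the trend). The F test of each gene's dispersion against the trend was computed from that fit, not by an edgeR function. DESeq2 1.42.0 served as a second tool, under R 4.3.3 and Python 3.11.15. Figures were drawn with matplotlib 3.10.9. The spread test was checked on simulated counts. It called 0 of 50 genes changed 2-fold, 23 of 50 changed 4-fold, 46 of 50 changed 8-fold and 50 of 50 changed 16-fold. Of 14150 unchanged genes it called 0. The lack of a call for Ier2 and Btg2, with CPM ratios of 1.51 to 2.45, thus says little about their spread. Why Egr1 was not called at CPM ratios of 8.57 and 9.00 was not tested. Named genes are the 10 members, the top 3 of each list by mean TPM, Egr4, Nab1, Nab2, Fos, Dusp6 and Etv5, and the 10 nearest to Egr1. Rxrg, Spred2, Trib1 and the cell type markers named (Adgre1, Csf1r, Lyz2, Ly6g, Elane, S100a8, S100a9, Ltf and Mpo) fall outside this rule. Alternatives covered pseudocount, unit, quantification, scaling, filter, tool and each library left out.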

Additional observations from a re-analysis of the deposited data

How the results depend on the processing

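No analysis paired between groups was possible because there is a single group. The family differences were taken within each library. The median level of the 10 members was 1.62 in log2(TPM + 1), 0.83 with a pseudocount of 0.1, 3.23 on rescaled TPM and 3.76 on kallisto-format rescaled TPM, and 1.19 to 1.92 with each library left out. Members detected numbered 5, with 9 at 10 or more expected counts, 2 at a kallisto-format TPM of 1, 7 on rescaled TPM and 9 on kallisto-format rescaled TPM. Nuclear-encoded protein-coding genes made up 8.47%, 14.7% and 2.92% of kallisto-format TPM in replicates 1, 2 and 3. A threshold of 1 thus differs in meaning between that scale and RSEM-format TPM. Both rescaled counts of detected members, and the rescaled counts of members highest in replicate 1, were added after the data were seen. Without any one library the number was 5. The NR4A minus EGR difference was 0.04, turned to -0.71 with means over members, and was 0.01 to 0.09 with each library left out. Both IER and Btg2 differences stayed positive in every alternative, at 2.33 to 5.31 over EGR and 2.11 to 5.17 over NR4A, and at 3.67 to 3.83 and 3.58 to 3.81 with each library left out. Genes with excess spread numbered 0, with 109 when low counts were kept, 83 dispersion outliers in DESeq2, and 0 to 24 with each library left out. The median share of isoforms not annotated as protein-coding over Egr3, Nr4a1, Nr4a2 and Nr4a3 was 33.9% of TPM and 17.1% of expected counts, and 29.5% to 37.5% with each library left out. The causes were not tested. The 5 scarce members had 9 to 46 counts a library, so their values carry large counting error.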
